A study of Mus musculus with 23 samples.

Results

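The mouse mitochondrial genome encodes 37 genes, and all 37 had a row in the deposited gene table of 55335 genes: 13 mRNAs, 2 rRNAs and 22 tRNAs. They were taken as the rows whose symbol starts with mt-, and every one of them lay on chromosome M. Their RNA was measured by RNA sequencing of whole hippocampus from 23 female mice in 6 groups, each library from a separate mouse. WT-8M (n = 4) and 3xTg-8M (n = 4) were unoperated mice of 8 months. The remaining 15 mice were 10 months old and had carried a brain cannula on an osmotic pump for 28 days: WT-D (n = 4) and 3xTg-D (n = 4) received vehicle with 0.8% DMSO, and WT-S (n = 3) and 3xTg-S (n = 4) received the same vehicle with 80 µM of ab142089, which blocks SCD, the stearoyl-CoA desaturase that introduces a double bond into saturated fatty acids.

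WT mice were the C57BL/6J x 129S1 hybrid strain. The 3xTg mice, a model of familial Alzheimer's disease, carried human APP and tau transgenes with disease mutations, both driven by the neuron-specific Thy1.2 element, and a mutant presenilin 1 (PS1) knock-in. All 3xTg mice therefore carried all 3 changes, and WT mice carried none of them. The study asked how the 3xTg hippocampus differs from WT and which of those differences change under SCD inhibition.

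Mitochondrial DNA is a small circle that is transcribed from both strands into long precursors. The tRNAs sit between most of the longer genes and are cut out, which frees the mRNAs and rRNAs. The mRNAs encode subunits of the respiratory chain and of ATP synthase, namely mt-Nd genes for complex I, mt-Cytb for complex III, mt-Co genes for complex IV and mt-Atp genes for ATP synthase. The rRNAs, mt-Rnr1 and mt-Rnr2, form the mitochondrial ribosome and the tRNAs serve translation inside the organelle. Most of these mRNAs end in a short poly(A) tail, whereas tRNAs do not carry one, and the libraries here were made by capture of polyadenylated RNA.

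The deposited values were counts of reads that mapped to a single place in the genome, and this decided which of the 37 genes could be measured. Chromosome 1 of the GRCm38 assembly carries a nuclear copy of a long stretch of mitochondrial DNA, with 7 annotated copies of mitochondrial genes between chr1:24611535-24616197 on the minus strand. Their order and spacing followed the mitochondrial genome to within 1 base. The start of mt-Co2, encoding a catalytic subunit of cytochrome c oxidase (complex IV), is shown with its copy Gm28661, since the genes were identical over all 681 bases aligned. The sequences were read from Gencode M21 transcripts on GRCm38. The mitochondrial stretch is chrM:7013-7072 on the plus strand, and the nuclear stretch is chr1:24615506-24615565 on the minus strand.
mt-Co2: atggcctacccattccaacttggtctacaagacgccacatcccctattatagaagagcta
Gm28661: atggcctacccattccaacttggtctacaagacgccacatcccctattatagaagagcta

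A single difference separated mt-Nd3, a complex I subunit, from its copy Gm28438 over 345 bases. It is shown because nearly the whole gene cannot be told from its copy. The difference was T3C, counted from 1 at the first base of mt-Nd3, and is given in capitals. These stretches are chrM:9459-9518 on the plus strand and chr1:24613060-24613119 on the minus strand.
mt-Nd3: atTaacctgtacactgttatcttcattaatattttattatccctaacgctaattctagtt
Gm28438: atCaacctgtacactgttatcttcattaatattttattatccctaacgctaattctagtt

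The copy ended inside mt-Co1, which encodes the main subunit of complex IV. Its last 492 bases aligned to Gm29216 with 6 differences, all within the first 13 bases of the copy: T1056A, C1057T, A1059G, A1060G, C1062A and A1066T, counted from the first base of mt-Co1 and given in capitals. The stretches are chrM:6381-6440 on the plus strand and chr1:24616138-24616197 on the minus strand.
mt-Co1: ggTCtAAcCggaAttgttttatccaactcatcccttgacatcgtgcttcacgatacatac
Gm29216: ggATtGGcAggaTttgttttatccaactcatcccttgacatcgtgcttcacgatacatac

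The sequencing kit gave reads of up to 75 bases, so each gene was cut into all windows of 75 bases and each window was searched for in every annotated transcript outside chromosome M. Of the windows of mt-Co2, 607 of 610 were found elsewhere, as were 604 of 607 for mt-Atp6, 709 of 710 for mt-Co3, 220 of 223 for mt-Nd4l and 268 of 274 for mt-Nd3. mt-Co2 and mt-Nd4l were at 0 counts in all 23 libraries, which allows up to 0.00766 CPM (counts per 1000000 gene counts) over the pooled libraries. mt-Atp6, mt-Co3 and mt-Atp8 never exceeded 3 counts in a library. mt-Atp8 had no window in an annotated transcript elsewhere, but it lies between mt-Co2 and mt-Atp6, whose copies on chromosome 1 keep the same spacing. These 5 mRNAs were not measured by uniquely mapped reads, and nothing about their abundance in hippocampus follows from their counts.

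mt-Nd4 and mt-Co1 were partly covered by copies, in 802 of 1304 and 586 of 1471 windows. mt-Nd2 shared 55 of 964 windows and mt-Nd5 29 of 1750, with copies on other chromosomes. mt-Nd1, mt-Nd6, mt-Cytb, mt-Rnr1 and mt-Rnr2 shared none. The copies on chromosome 1 held between 19 and 114 counts per library in sum. Gm28661, the 1 of these 7 copies that passed the filter on low counts, had 1.30 ± 0.394 CPM (SD, n = 23) and an adjusted p of at least 0.364 in all 8 comparisons by edgeR's quasi-likelihood test. Chromosome 2 held further copies at higher levels. Gm13340 shared 220 windows with mt-Co1 and was at 11.2 ± 1.90 CPM. Gm13341 shared 138 windows with mt-Co2 and was at 2.64 ± 1.22 CPM. Their fold changes are not given here.

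**Figure D1:**
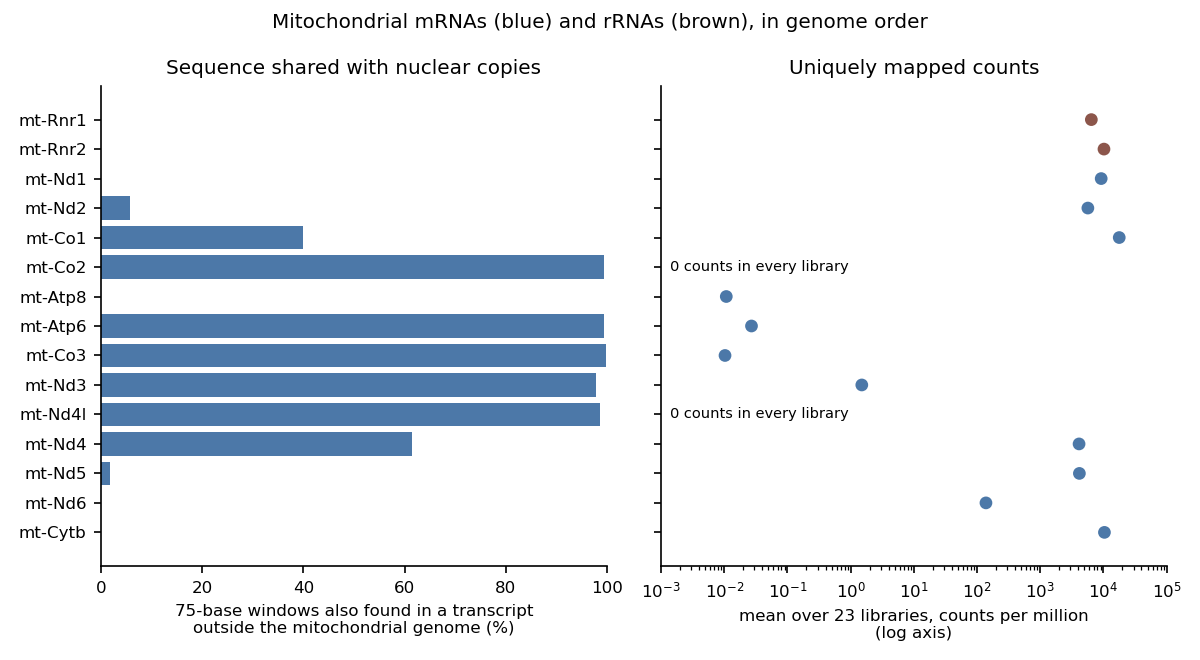
Share of 75-base windows of each mitochondrial mRNA and rRNA that also occur in a transcript outside the mitochondrial genome (left, percent) and mean level over 23 libraries in CPM (right, log axis). Genes with 97.8% or more of their windows shared had means at or below 1.50 CPM, while genes with 61.5% or fewer, apart from mt-Atp8, had means of 138 CPM or more.

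The tRNAs met another limit. In the gene counts of the aligner STAR a read is counted for a gene only if it touches no other gene, and tRNA genes abut their neighbours. When strand was ignored, 17 of the 22 tRNA genes had no position where a read of 75 bases could lie on them without touching another mitochondrial gene, and 7 of 22 had none when only genes on the same strand were considered. The valine tRNA mt-Tv, between mt-Rnr1 and mt-Rnr2 at chrM:1025-1093 on the plus strand, had none on either rule. The methionine tRNA mt-Tm, at chrM:3845-3913 on the plus strand, had none when strand was ignored and 65 when it was not. Both are shown whole, since they gave the smallest p-values described further on and are shorter than a full read.
mt-Tv: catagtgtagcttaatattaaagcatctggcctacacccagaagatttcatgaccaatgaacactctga
mt-Tm: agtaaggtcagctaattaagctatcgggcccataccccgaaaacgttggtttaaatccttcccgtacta

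The counts of such tRNAs can come from reads shortened by trimming or aligned in part, or from strand-aware counting. The strand setting is not given in the sources used here. Without strand, reads of mt-Nd6 and mt-Nd5, which overlap on opposite strands, cannot be told apart within the overlap. Of the 22 tRNAs, 5 were at 0 in every library and 6 others never exceeded 3 counts. The 10 tRNAs that passed the filter on low counts had at least 4 counts in every library and means between 0.808 and 30.4 CPM.

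In all, 20 of the 37 genes passed that filter, and the same 20 did so in all 8 comparisons: 8 of 13 mRNAs, both rRNAs and 10 of 22 tRNAs. All 20 had counts in every library, so none of them entered through a single group. The other 17 are not covered by any test that follows.

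The measured mitochondrial transcripts took between 5.57% and 8.21% of gene counts per library. The mRNAs contributed 51462 ± 3818 CPM (SD, n = 23), the rRNAs 16636 ± 4335 CPM and the tRNAs 75.4 ± 12.7 CPM. Among the mRNAs, mt-Co1 made up 34.6% ± 1.47 (SD, n = 23) of the counts, mt-Cytb 20.2% ± 0.719, mt-Nd1 17.9% ± 1.01 and mt-Nd2 11.0% ± 0.934. mt-Nd5 and mt-Nd4 each gave close to equal shares, at 8.10% ± 0.682 and 8.00% ± 0.397, whereas mt-Nd6 gave 0.269% ± 0.0466 and mt-Nd3, through its few distinct windows, 0.00290% ± 0.000791.

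To compare genes, levels were taken per length, as CPM per 1000 windows not found elsewhere. On this scale mt-Co1 was highest at 20094 ± 1737 (SD, n = 23), followed by mt-Nd1 at 10436 ± 1105 and mt-Cytb at 9696 ± 679, which lay within 1 SD of each other. mt-Co1 lay above mt-Nd1 in 23 of 23 libraries, and mt-Nd1 above mt-Cytb in 18 of 23. Next came mt-Nd4 at 8196 ± 631, mt-Rnr1 at 7307 ± 1743, mt-Rnr2 at 6764 ± 1864 and mt-Nd2 at 6240 ± 708, and among these the SDs of neighbours overlapped. mt-Rnr1 exceeded mt-Rnr2 in 23 of 23 libraries on this scale, although their SDs overlapped, since both moved together between libraries. mt-Rnr2 and mt-Nd2 did not keep an order, with mt-Rnr2 higher in 13 of 23. mt-Nd5 was lower at 2419 ± 257. The lowest was mt-Nd6 at 311 ± 54.8, the 1 mRNA gene on the minus strand. Part of this order rests on the correction for shared windows. As CPM per 1000 bases, mt-Co1 was at 11510 ± 995, mt-Nd1 at 9629 ± 1019 and mt-Nd4 at 2986 ± 230. On that scale mt-Nd4 lay below both rRNAs and mt-Nd2. Only annotated transcripts were searched, so copies outside them were not counted.

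Libraries differed in gene counts from 12802267 to 36686413, and the tissue carried all 10 hippocampal neuron markers examined above 1 CPM. The levels of 3 libraries stood apart in the mitochondrial transcripts. 3xTg-8M replicate 4 held the highest level of the 23 libraries for 8 of the 20 measured genes. WT-D replicate 4 and WT-S replicate 3 held the lowest for 5 and 8 of the 20, and were among the lowest 2 libraries for 14 and 12.

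The departure of 3xTg-8M replicate 4 was in the rRNAs and in several tRNAs. Its summed rRNA level was 34398 CPM, while the other 22 libraries lay between 11769 and 21345 CPM, and its mRNA level of 47618 CPM lay inside the range of 43411 to 59088 CPM. Relative to the mean of the other 3 mice of its group, mt-Rnr1 was 2.04-fold and mt-Rnr2 2.21-fold, whereas mt-Nd1 was 1.05-fold, mt-Cytb 0.971-fold and mt-Co1 0.880-fold. On the same ratio mt-Nd6 was 1.25-fold. Among the tRNAs, mt-Ta was 2.56-fold, mt-Tv 1.92-fold and mt-Te 1.70-fold, whereas mt-Tp was 1.04-fold and mt-Tw 0.992-fold. Summed tRNA was 104 CPM, beside 49.8 to 90.2 CPM in the other 22 libraries. The ratio of rRNA to mRNA counts was 0.722 in this library and 0.254 to 0.411 in the others. The ratio of mt-Rnr2 to mt-Rnr1, 1.68, lay within the range of 1.33 to 1.71 of the other libraries.

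Several measures outside the mitochondrial genome, chosen after these values were seen, stood apart in the same library. Gm42418, a nuclear locus to which reads of cytosolic ribosomal RNA are known to map, was at 22252 CPM against 1154 to 4095 CPM in the other 22. RNAs in the table's categories snRNA, snoRNA, scaRNA and misc_RNA, most of which lack a poly(A) tail, summed to 296 CPM against 48.4 to 95.2 CPM. The share of reads mapping to several places was 15.1% against 11.4% to 13.9%. The slope of log2 CPM on log2 transcript length over nuclear genes was 0.666 against 0.696 to 0.877, and the second lowest slope was in 3xTg-S replicate 2, the library with the second highest rRNA level. Summed choroid plexus markers reached 702 CPM in 3xTg-8M replicate 4 and 593 CPM in 3xTg-S replicate 2, and the range over all libraries was 207 to 786 CPM. The part of these measures in the rRNA levels was not tested.

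**Figure D2:**
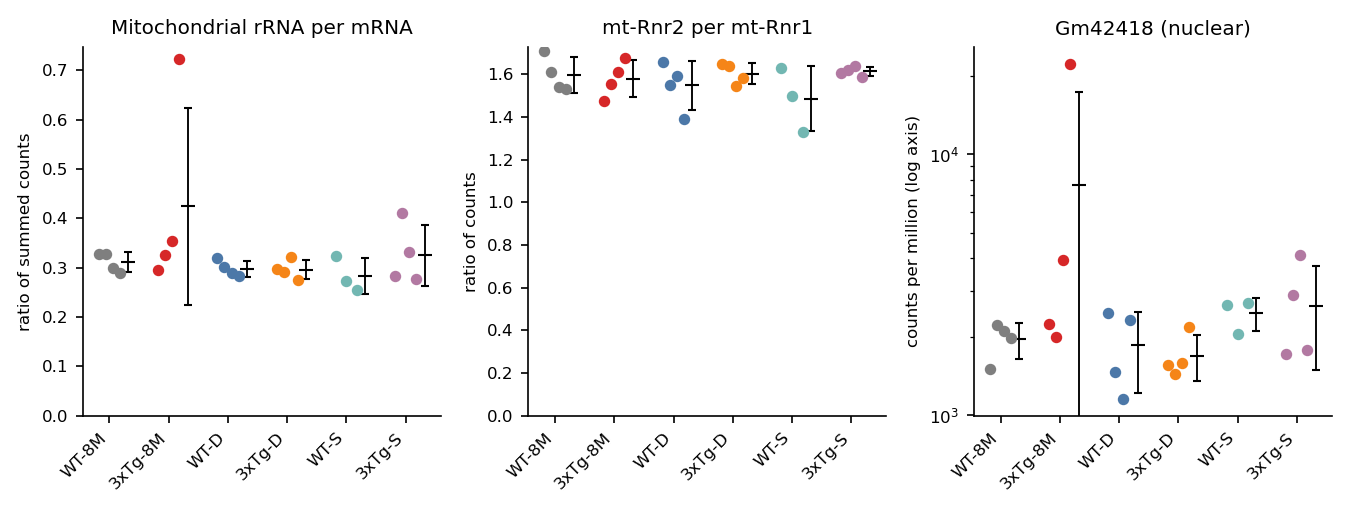
Ratio of summed mitochondrial rRNA to mRNA counts (left), ratio of mt-Rnr2 to mt-Rnr1 counts (middle) and level of the nuclear locus Gm42418 in CPM on a log axis (right), by group. Points are mice, and black marks are the group mean with SD. One 3xTg-8M mouse lay at 0.722 in the left panel and at 22252 CPM in the right panel, and in the middle panel it lay among the others.

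In unoperated mice of 8 months, no mitochondrial transcript passed the test between 3xTg-8M and WT-8M. Summed mRNA was 49112 ± 2932 CPM (SD, n = 4) in 3xTg-8M and 51274 ± 2681 CPM (n = 4) in WT-8M, and summed tRNA was 86.5 ± 12.5 and 77.7 ± 9.26 CPM. Of the 20 genes tested, 0 passed a Benjamini-Hochberg adjusted p of 0.05 by edgeR's quasi-likelihood test, where 2.58% of all genes tested did, and 3 had an unadjusted p under 0.05, where 17.4% of all genes did. The count of 3 was 0 without WT-8M replicate 1, and 1 without WT-8M replicate 2 or without 3xTg-8M replicate 4. In bulk tissue, fewer cells that are rich in mitochondria and less mitochondrial RNA per cell cannot be told apart.

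The rRNA values show how far 1 library carried the group. mt-Rnr1, the small ribosomal subunit RNA, was at 6351, 6497, 5586 and 6088 CPM in WT-8M and at 6387, 6075, 6457 and 12848 CPM in 3xTg-8M. mt-Rnr2, the large subunit RNA, was at 10855, 10456, 8611 and 9311 CPM in WT-8M and at 9431, 9457, 10404 and 21550 CPM in 3xTg-8M. For both rRNAs, 3 of the 4 3xTg-8M mice lay within the WT-8M range. The median log2 fold change of the rRNAs was 0.38, beside 0.01 over all genes tested. Without 3xTg-8M replicate 4 the rRNA median was 0.01.

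The mRNAs had a median log2 fold change of -0.02, with 2 of 8 positive. mt-Nd1 was at 8831, 8624, 8633 and 9819 CPM in WT-8M and at 9864, 8418, 8691 and 9474 CPM in 3xTg-8M, so the groups overlapped. mt-Nd6, a complex I subunit read from the other strand, was at 162, 144, 144 and 161 CPM in WT-8M and at 145, 136, 143 and 177 CPM in 3xTg-8M, again with overlap. mt-Nd5, another complex I subunit, was 1 of the 3 with an unadjusted p under 0.05, at 4507 ± 558 CPM (SD, n = 4) in WT-8M and 3866 ± 189 CPM (n = 4) in 3xTg-8M. Its adjusted p was 0.229 by edgeR and reached 0.0497 without WT-8M replicate 3.

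The tRNAs had a median log2 fold change of 0.01, with 5 of 10 positive, and between -0.08 and 0.19 when 1 library was left out. The other 2 transcripts with an unadjusted p under 0.05 were tRNAs. mt-Tv was at 0.463, 0.427, 2.27 and 2.36 CPM in WT-8M and at 2.89, 2.27, 3.08 and 5.28 CPM in 3xTg-8M, so that a pair of WT-8M mice was far below the other pair and the groups met near 2.3 CPM. mt-Tm was at 24.3, 29.8, 28.2 and 36.7 CPM in WT-8M and at 38.9, 32.5, 31.4 and 47.8 CPM in 3xTg-8M. The highest value of both tRNAs was in replicate 4 of 3xTg-8M.

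**Figure D3:**
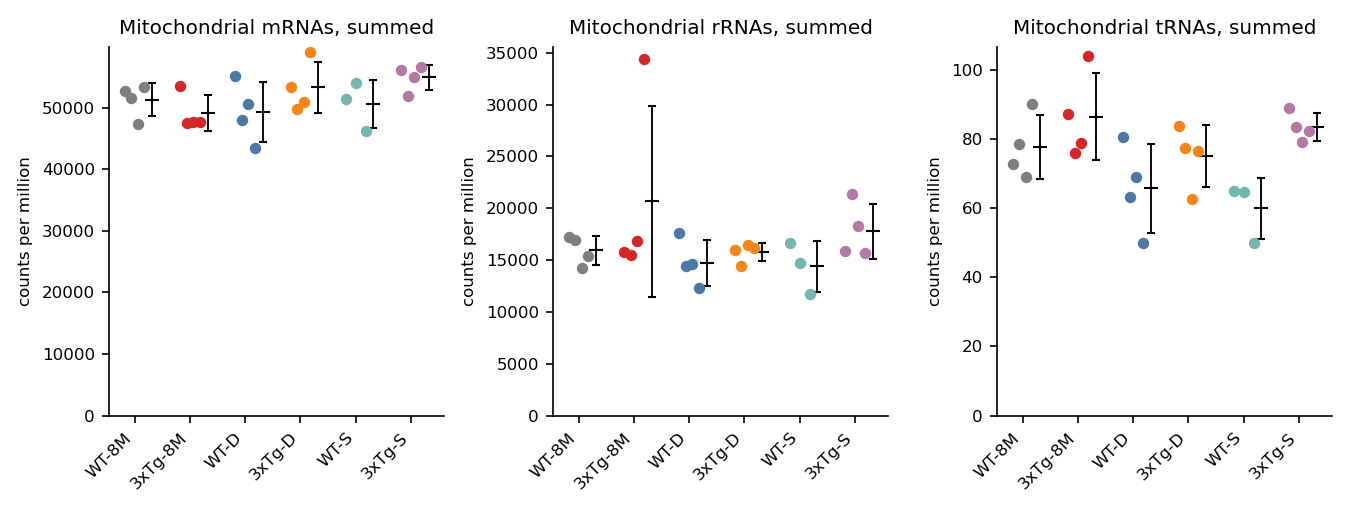
Summed level of the mitochondrial mRNAs, rRNAs and tRNAs in each library, in CPM, by group. Points are mice, and black marks are the group mean with SD. The rRNA panel shows the 3xTg-8M mouse at 34398 CPM, and the tRNA panel shows 3xTg-S between 79.2 and 88.9 CPM, above all 3 WT-S mice.

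Under vehicle at 10 months, no mitochondrial transcript passed the test between 3xTg-D and WT-D either. Summed mRNA was 53344 ± 4111 CPM (SD, n = 4) in 3xTg-D and 49309 ± 4944 CPM (n = 4) in WT-D, summed rRNA was 15759 ± 888 and 14732 ± 2204 CPM, and summed tRNA was 75.2 ± 8.91 and 65.7 ± 12.8 CPM. By the same test 0 of 20 passed, where 1.39% of all genes did, and 0 had an unadjusted p under 0.05, where 13.1% of all genes did. Without WT-D replicate 1, 3 of 20 had an unadjusted p under 0.05, and without 3xTg-D replicate 3, 1 had. The smallest adjusted p among the 20 was 0.525.

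The direction was nevertheless mostly 1 way, although the 20 transcripts share precursors and libraries and are not independent. All 8 mRNAs had a positive log2 fold change, between 0.02 and 0.22 with SEs between 0.09 and 0.28, as had both rRNAs and 7 of the 10 tRNAs, beside 49.0% of all genes tested. The medians were 0.10 for mRNAs, 0.08 for rRNAs and 0.09 for tRNAs. Without WT-D replicate 4, one of the libraries with the lowest mitochondrial levels, 11 of 20 were positive and the medians were 0.02, -0.01 and -0.01, without WT-D replicate 1 they were 0.20, 0.18 and 0.18, and the tRNA median was -0.08 without 3xTg-D replicate 2 and 0.24 without 3xTg-D replicate 3. mt-Nd1 was at 9491, 7872, 9300 and 7254 CPM in WT-D and at 9685, 9109, 9134 and 10992 CPM in 3xTg-D. mt-Nd6 was at 153, 119, 128 and 91.4 CPM in WT-D and at 157, 152, 97.7 and 134 CPM in 3xTg-D.

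The rRNAs overlapped in the same way. mt-Rnr1 was at 6627, 5655, 5641 and 5126 CPM in WT-D and at 6014, 5484, 6460 and 6272 CPM in 3xTg-D. mt-Rnr2 was at 10995, 8756, 8993 and 7135 CPM in WT-D and at 9921, 8982, 9988 and 9917 CPM in 3xTg-D. WT-D spanned the whole 3xTg-D range for both.

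Inhibitor-infused 3xTg mice were then compared with vehicle-infused WT mice, a contrast that shares the WT-D libraries with the previous one. Of the 20 transcripts, 0 passed the adjusted threshold, where 2.29% of all genes did, 4 had an unadjusted p under 0.05, where 16.9% did, and 2 had one under 0.01, where 6.59% did. The medians were 0.18 for mRNAs, 0.25 for rRNAs and 0.31 for tRNAs, and 18 of 20 log2 fold changes were positive, beside 51.2% of all genes. Without WT-D replicate 1, the WT-D library with the highest mitochondrial levels, 12 of 20 had an unadjusted p under 0.05 and 6 one under 0.01, and without WT-D replicate 2 or WT-D replicate 4, 2 and 1 did. The shares over all genes in these fits are not given here. Without WT-D replicate 4 the medians were 0.09, 0.16 and 0.18. The count under 0.01 was also 1 without 3xTg-S replicate 1 or 3xTg-S replicate 4, and the rRNA median was 0.16 without 3xTg-S replicate 2.

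mt-Tm was the transcript closest to the threshold. Its level was 26.1, 22.7, 26.3 and 25.8 CPM in WT-D and 35.6, 30.9, 36.1 and 28.5 CPM in 3xTg-S, so every 3xTg-S mouse lay above every WT-D mouse. The log2 fold change was 0.36 (SE 0.09), with an adjusted p of 0.0587 by edgeR's quasi-likelihood test. Over the alternative settings this adjusted p passed 0.05 in 4, among them DESeq2's likelihood ratio test at 0.0191 and the fit without 3xTg-S replicate 4 at 0.0474.

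mt-Tv was at 2.28, 1.54, 1.18 and 0.872 CPM in WT-D and at 3.76, 2.12, 2.19 and 3.18 CPM in 3xTg-S. One WT-D mouse lay above a pair of 3xTg-S mice, and the rest were separate. The log2 fold change was 0.91 (SE 0.29), with an adjusted p of 0.140 by edgeR, from 14 to 40 counts per library in WT-D and 30 to 61 in 3xTg-S. The other 2 transcripts with an unadjusted p under 0.05 were the complex I mRNAs mt-Nd1 and mt-Nd4. mt-Nd1 was at 10467, 10169, 9881 and 10709 CPM in 3xTg-S, above all WT-D mice. mt-Tm and mt-Nd1 were thus the 2 of 20 genes whose groups did not overlap, where 10.1% of all genes tested did not.

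Within 3xTg mice, no mitochondrial transcript passed the threshold between inhibitor and vehicle. By edgeR's quasi-likelihood test 0 of 20 passed, where 0% of all genes did. mt-Tv was the 1 transcript with an unadjusted p under 0.05, where 11.2% of all genes had one, the 1 under 0.01, where 2.52% did, and the 1 whose groups did not overlap, where 6.89% of genes did not. It was at 1.59, 1.52, 0.670 and 0.906 CPM in 3xTg-D, which together with the 3xTg-S values above gave a log2 fold change of 1.27 (SE 0.29) and an adjusted p of 0.378. Its counts were 11 to 23 per library in 3xTg-D. Without 3xTg-D replicate 4, 3 of 20 had an unadjusted p under 0.05.

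The summed classes differed by less than 1 SD of the more variable group. The median log2 fold changes were 0.07 for mRNAs, 0.17 for rRNAs and 0.22 for tRNAs, beside -0.00206 over all genes. Without 3xTg-D replicate 3 the mRNA median was 0.02 and the tRNA median 0.04, and without 3xTg-S replicate 1 the tRNA median was 0.13. Without 3xTg-D replicate 4 the mRNA median was 0.11. Summed mRNA was 54937 ± 2081 CPM (SD, n = 4) in 3xTg-S, summed rRNA 17782 ± 2646 CPM and summed tRNA 83.4 ± 4.06 CPM. mt-Rnr1 was at 6091, 8151, 6905 and 6053 CPM and mt-Rnr2 at 9794, 13194, 11333 and 9609 CPM in 3xTg-S, with the highest value of both in replicate 2. Without that replicate the rRNA median was 0.07, and with the slope of level on transcript length as a covariate it was -0.06. mt-Nd6 was at 147, 175, 108 and 137 CPM in 3xTg-S and overlapped 3xTg-D.

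In WT mice the inhibitor also gave 0 of 20 past the adjusted threshold, where 0% of all genes passed, and 0 with an unadjusted p under 0.05, where 3.42% of all genes had one. Summed mRNA was 50575 ± 3918 CPM (SD, n = 3) in WT-S, summed rRNA 14393 ± 2477 CPM and summed tRNA 59.9 ± 8.73 CPM. The tRNA median log2 fold change was -0.33, with 7 of 10 negative, and mRNAs and rRNAs had medians of 0.000660 and -0.04.

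The tRNA median depended on single libraries of both groups. It was -0.05 without WT-S replicate 3, -0.11 without WT-D replicate 1 and -0.20 without WT-D replicate 3, and it was -0.55 without WT-D replicate 4 and -0.63 without WT-S replicate 1. With the length slope as a covariate it was 0.34. Without WT-D replicate 4, 3 of 20 transcripts had an unadjusted p under 0.05, and without WT-S replicate 1 or WT-S replicate 2, 1 had. WT-S replicate 3 had the tryptophan tRNA mt-Tw at 5.66 CPM against 16.1 and 15.7 CPM in the other WT-S mice, and the isoleucine tRNA mt-Ti at 2.83 CPM against 8.70 and 6.06 CPM. mt-Nd1 was at 8465, 9660 and 7404 CPM and mt-Nd6 at 146, 139 and 84.9 CPM in WT-S, with the lowest of each in replicate 3. mt-Rnr1 was at 6342, 5893 and 5053 CPM and mt-Rnr2 at 10349, 8828 and 6715 CPM, again lowest in replicate 3. WT-S replicate 3 and WT-D replicate 4 came from animals with neighbouring numbers in the labels, and the 3xTg-D and 3xTg-S mice of that number range did not share the low values: summed tRNA was 76.5 and 82.3 CPM in those mice, and 49.8 and 49.9 CPM in the WT mice.

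The contrast with the most nominal differences was between the strains under inhibitor. Of 20 transcripts, 0 passed the adjusted threshold in 3xTg-S against WT-S, where 1.32% of all genes did, but 10 had an unadjusted p under 0.05, where 10.6% of all genes did, and all 10 were higher in 3xTg-S. They were mt-Nd1, mt-Nd2 and mt-Nd3 of complex I, mt-Rnr2, and the tRNAs mt-Tv, mt-Tl1, mt-Ti, mt-Tm, mt-Tw and mt-Te. The median log2 fold change was 0.14 for mRNAs, 0.29 for rRNAs and 0.71 for tRNAs, and 18 of 20 were positive, beside 51.2% of all genes. The count of 10 fell to 6 without WT-S replicate 3 or without WT-S replicate 2, and the tRNA median was then 0.34 and 0.81. With a block for runs of neighbouring animal numbers in the labels, the count was 5. WT-S held no mouse of the first run, so this contrast was not balanced for run. Without WT-S replicate 3 the mRNA and rRNA medians were 0.05 and 0.16.

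An unadjusted p under 0.01 was found for 2 transcripts in this contrast, where 4.14% of all genes had one. That count was 0 without 3xTg-S replicate 1 or 3xTg-S replicate 4, 1 without WT-S replicate 3, and 5 without WT-S replicate 1. mt-Tv was at 1.85, 1.59 and 1.09 CPM in WT-S, below the 2.12 to 3.76 CPM of 3xTg-S, with a log2 fold change of 0.90 (SE 0.28) and an adjusted p of 0.210 by edgeR. The leucine tRNA mt-Tl1 was at 1.77, 2.09 and 1.09 CPM in WT-S and at 4.38, 2.39, 2.92 and 2.70 CPM in 3xTg-S, with a log2 fold change of 0.91 (SE 0.28) and an adjusted p of 0.214. WT-S counts were 15 to 24 for mt-Tv and 15 to 29 for mt-Tl1. In the other groups mt-Tl1 lay between 1.58 and 3.59 CPM.

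For 6 of the 20 the range of 3xTg-S lay wholly above that of WT-S, and 10.6% of all genes tested had separate ranges: mt-Nd1, mt-Nd2, mt-Tv, mt-Tl1, mt-Tw and the proline tRNA mt-Tp. Mitochondrial transcripts as a share of gene counts were 7.21% to 7.34% in 3xTg-S and 5.81% to 6.88% in WT-S. Summed markers of oligodendrocytes and microglia were also separate between these groups, whereas the other marker sums overlapped. The 5 oligodendrocyte markers, all detected, summed to 5426 to 6327 CPM in 3xTg-S against 3585 to 4691 CPM in WT-S and 3824 to 4985 CPM in WT-D, and the 5 microglia markers to 362 to 440, 312 to 333 and 297 to 344 CPM. The microglia markers were separate at 8 months as well, at 342 to 399 CPM in 3xTg-8M and 299 to 334 CPM in WT-8M. The oligodendrocyte markers overlapped there, at 4445 to 5638 CPM in 3xTg-8M and 2894 to 5231 CPM in WT-8M. Under vehicle at 10 months both sums overlapped between strains. In 3xTg-D they were 294 to 449 CPM for microglia and 3484 to 5480 CPM for oligodendrocytes. The 10 neuron markers summed to 8524 to 9729 CPM in 3xTg-S, 9331 to 10457 CPM in WT-S and 9723 to 10233 CPM in WT-D. In 3xTg-D they summed to 9059 to 9540 CPM, below WT-D. Astrocyte markers summed to 4498 to 5763 CPM in 3xTg-S and 4549 to 4945 CPM in WT-S, and endothelium markers to 170 to 195 and 162 to 191 CPM. The part of cell composition in the mitochondrial levels was not tested.

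**Figure D4:**
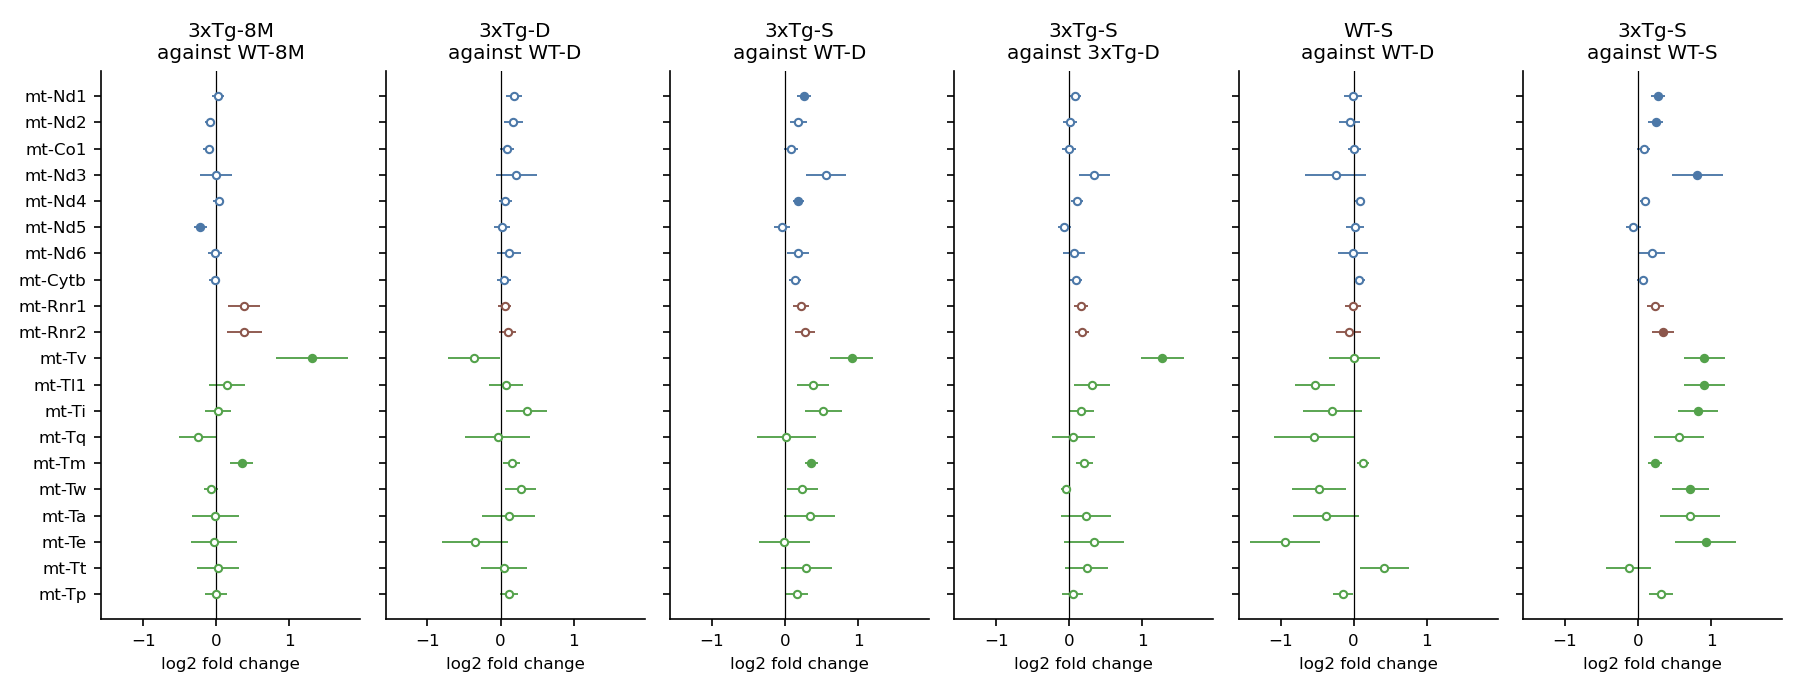
Log2 fold change with SE for the 20 measured mitochondrial transcripts in the 6 pairwise comparisons, mRNAs in blue, rRNAs in brown and tRNAs in green. Filled points have an unadjusted p under 0.05, and none passed adjustment over all genes. The tRNAs in the rightmost panel, 3xTg-S against WT-S, had a median of 0.71, and 9 of 10 were positive.

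Over both strains the inhibitor effect was tested in 1 model of the 15 libraries. Of the 20 transcripts 0 passed, where 0% of all genes did, and 2 had an unadjusted p under 0.05, mt-Tv and mt-Tm, where 13.8% of all genes had one. Leaving out 1 library gave 1 to 4. Medians were 0.03 for mRNAs, 0.07 for rRNAs and -0.03 for tRNAs, and the tRNA median lay between -0.13 without 3xTg-D replicate 3 and 0.11 without WT-S replicate 3. The log2 fold changes of the 8 mRNAs lay between -0.02 and 0.10, with SEs of 0.06 to 0.23.

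Whether the inhibitor effect differed between strains was tested by the interaction term. For 0 of 20 transcripts did it pass, where 0% of all genes did, and every adjusted p of the 20 was 1. The interaction had an unadjusted p under 0.05 for 2 tRNAs, mt-Tv and mt-Tl1, where 2.32% of all genes had one. The median interaction was 0.05 for mRNAs, 0.21 for rRNAs and 0.53 for tRNAs on the log2 scale. Without WT-S replicate 3 the tRNA median was 0.19 and without WT-D replicate 1 it was 0.31, and in both 0 transcripts had an unadjusted p under 0.05. Without WT-S replicate 1 it was 0.88, with 3 such transcripts.

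**Figure D5:**
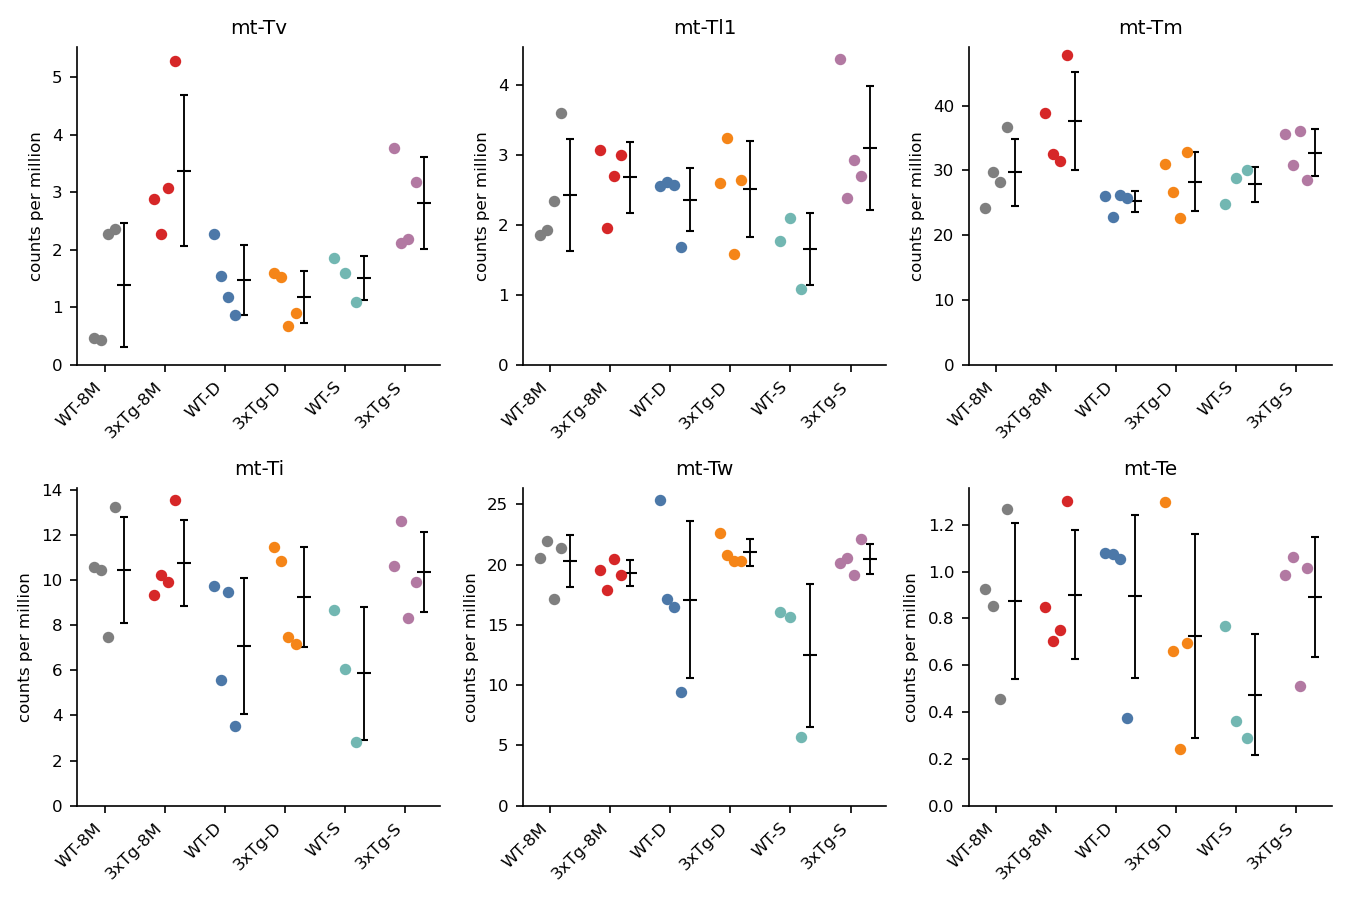
Level of 6 mitochondrial tRNAs in each library, in CPM, by group. Points are mice, and black marks are the group mean with SD. The valine tRNA mt-Tv lay between 2.12 and 3.76 CPM in 3xTg-S, above all 3xTg-D and WT-S mice, and the tryptophan tRNA mt-Tw shows the low WT-S mouse at 5.66 CPM.

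The nuclear genes that serve the mitochondrial genome were examined as a list of 37, covering its transcription, RNA processing, decay and copying. All 37 passed the filter in each comparison and 0 were called in any of the 8, where 0% to 2.58% of all genes were. Their median log2 fold change lay between -0.01 and 0.05, in 3xTg-S against 3xTg-D at 0.05 with 28 of 37 positive, beside 49.5% of all genes tested. Polrmt, the mitochondrial RNA polymerase, was at 18.6 ± 1.5 CPM (SD, n = 23), Tfam, which packages mitochondrial DNA and starts its transcription, at 49.6 ± 3.42 CPM, and Lrpprc, which stabilises mitochondrial mRNAs, at 95.6 ± 4.13 CPM. None of these 3 had an unadjusted p under 0.05 in a pairwise comparison, and Tfam had one of 0.0340 for the inhibitor over both strains by edgeR, with an adjusted p of 0.323.

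An unadjusted p under 0.01 was found for 2 genes of the list, 1 of 37 in each of 3 comparisons. Over all genes the share was 6.59% in 3xTg-S against WT-D, 4.14% in 3xTg-S against WT-S and 4.1% for the inhibitor over both strains. A count of 1 in 37 does not tell the list from all genes. Rexo2, an exonuclease that degrades short RNAs in mitochondria, had a log2 fold change of 0.19 (SE 0.06) in 3xTg-S against WT-D and 0.23 (SE 0.07) in 3xTg-S against WT-S, with adjusted p-values of 0.134 and 0.178 by edgeR. Hsd17b10, a subunit of the mitochondrial enzyme that cuts the 5′ ends of tRNAs, had 0.15 (SE 0.05) for the inhibitor over both strains, with an adjusted p of 0.235. With the length slope as a covariate the value for Hsd17b10 was 0.04.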

How the data were processed

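The authors trimmed single-end reads with Trimmomatic 0.35 and aligned them to GRCm38 with STAR 2.5.1b and Gencode M23, and deposited read counts per gene, not normalized. The 4 lines that name no gene, 24.7% to 30.9% of reads per library, were left out, and 0 columns were unused. Libraries carried UMI indexes, and whether duplicates were collapsed is not given in the sources used here.

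The counts were tested with edgeR 4.0.16 (R 4.3.3) by quasi-likelihood F-tests after its default filter on low counts and TMM scaling. Each pair of groups was fitted alone, and strain, inhibitor and their interaction in 1 model of the 15 libraries of 10 months. P-values were adjusted over all genes tested by the Benjamini-Hochberg method. CPM are raw counts per 1000000 gene counts. Fold changes of 8 comparisons share libraries where they share a group. Mitochondrial transcripts also share precursors and libraries, so counts of signs or of p-values over them are not counts of independent observations. On simulated counts with 2-fold changes, 90.7% were called in 3xTg-8M against WT-8M (15279 genes), 80.8% in WT-S against WT-D (15520 genes) and 96.9% in the 15-library model (15811 genes). For 1.4-fold changes the shares were 59.4%, 47% and 66.7%. Smaller changes, such as those of most mRNAs here, were not simulated.

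Members, gene lists and named genes were chosen with earlier results of these data known. All mRNAs and rRNAs were described, tRNAs were named from a mean of 0.5 CPM, and a fold change was printed for members called or with an unadjusted p under 0.01, the study's threshold. Per-library values were given for these members and for mt-Nd1, mt-Nd6, mt-Rnr1 and mt-Rnr2. The genes mt-Nd5, mt-Te, mt-Ta, mt-Ti, mt-Tw, mt-Tp, Gm13340 and Gm13341 were named after their values were seen. Nuclear genes of the list were named by the same threshold, with Polrmt, Tfam and Lrpprc in any case. Summed marker levels in range over all libraries were 4207 to 5763 CPM for astrocytes, 150 to 195 CPM for endothelium, 4.87 to 213 CPM for blood and 116 to 161 CPM for thalamus.

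Transcript sequences and lengths came from Gencode M21 on the same assembly, whose chromosome M genes had the same coordinates. The length slope was fitted over 14596 nuclear genes whose mean was 1 CPM or more. Alternatives tried were DESeq2 size factors, scaling without mitochondrial transcripts, no filter, DESeq2 1.42.0 with a likelihood ratio test, an unadjusted p of 0.01, the length slope as covariate, leaving out each library, a block for runs of animal numbers, all 15 libraries in 1 fit, and levels per 1000000 nuclear counts. The floor given for genes at 0 counts covers counting error only, whereas SDs and SEs include differences between mice.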

Additional observations from a re-analysis of the deposited data

Results flagged for a closer look

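Within groups of 4 mice, the highest or lowest library was compared with the rest by Dixon's ratio for the summed classes and the 20 measured transcripts. Of 115 sets of 4, 9 exceeded its critical value, where chance gives about 5%.

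The rRNAs of 3xTg-8M replicate 4 gave 3 of these. Its summed rRNA was 34398 CPM, while the other 3 mice lay between 15532 and 16861 CPM, mt-Rnr1 was 12848 CPM against 6075 to 6457 CPM, and mt-Rnr2 was 21550 CPM against 9431 to 10404 CPM. In the same group, summed mRNA was 53509 CPM in replicate 1 and 47575 to 47745 CPM in the others.

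WT-D replicate 4 was lowest for the leucine tRNA mt-Tl1, at 1.68 CPM against 2.56 to 2.62 CPM, and for the glutamate tRNA mt-Te, at 0.374 CPM against 1.05 to 1.08 CPM. mt-Te was also lowest in 3xTg-S replicate 3, at 0.512 CPM against 0.987 to 1.06 CPM. mt-Tm was 22.7 CPM in WT-D replicate 2 against 25.8 to 26.3 CPM, and mt-Rnr2 was 8982 CPM in 3xTg-D replicate 2 against 9917 to 9988 CPM.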

How the results depend on the processing

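Over 136 alternative fits of the 8 comparisons, 124 called 0 mitochondrial transcripts, as reported, and 12 called at least 1. In 3xTg-D against WT-D, WT-S against WT-D, inhibitor against vehicle over both strains and the interaction, 0 were called in every alternative. The count at an unadjusted p under 0.01 was 2 in 3xTg-S against WT-D, 1 in 3xTg-S against 3xTg-D and 2 in 3xTg-S against WT-S. With no filter on low counts, more genes and more members were tested. In 3xTg-8M against WT-8M, 1 of 28 members (mt-Tv) was then called, beside 854 of 32065 genes. The calls were 5 of 28 beside 1135 of 30873 genes in 3xTg-S against WT-D, and 1 of 25 beside 112 of 30702 in 3xTg-S against 3xTg-D. In 3xTg-S against WT-S, 8 of 24 were called, beside 729 of 30295 genes. The cause was not tested. DESeq2's likelihood ratio test called 1 of 20 (mt-Tm) in 3xTg-S against WT-D, beside 577 of 15567 genes. The replicate block also called mt-Tm there, beside 357 of 15567 genes, and changed no other count of called members. Over all genes, mice of the same run did not deviate together (median r of 0.0124 over 21 pairs), which cannot decide whether runs matter for the mitochondrial transcripts. With the block, the tRNA median of WT-S against WT-D was -0.13 instead of -0.33. In 3xTg-S against WT-S, 5 of 20 instead of 10 then had an unadjusted p under 0.05 by edgeR. Leaving out 1 library gave 0 to 1 calls in 3xTg-8M against WT-8M (mt-Nd5 without WT-8M replicate 3, beside 347 of 15728 genes). It gave 0 to 1 in 3xTg-S against WT-D (mt-Tm without 3xTg-S replicate 4, beside 226 of 15844 genes). In 3xTg-S against WT-S it also gave 0 to 1 (mt-Ti without WT-S replicate 1, beside 286 of 15968 genes).

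The printed log2 fold changes of mt-Tv, mt-Tm, mt-Tl1, Rexo2 and Hsd17b10 kept their sign under the alternatives run, with mt-Tv between 0.72 and 1.23 in 3xTg-S against WT-D, 1.06 and 1.53 in 3xTg-S against 3xTg-D, and 0.71 and 1.08 in 3xTg-S against WT-S. Some class medians changed sign, and others changed in size. With the length slope as covariate the rRNA median fell from 0.38 to 0.06 at 8 months. In 3xTg-S against 3xTg-D it went from 0.17 to -0.06. In WT-S against WT-D the medians were then 0.32 for mRNAs, 0.32 for rRNAs and 0.34 for tRNAs, with 11 of 20 at an unadjusted p under 0.05. In that fit 0 of 15724 genes passed the adjusted threshold. The share of all genes with an unadjusted p under 0.05 is not given for this or the other alternative fits. Counts of members from those fits therefore cannot be set against all genes. Low counts limit the tRNAs most, and 17 of the 37 genes could not be tested.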
